A study of Homo sapiens with 24 samples.

Results

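This is an account of 18 genes that were almost without reads in androgen-deprived LNCaP cells and gained reads when the cells received R1881, a synthetic androgen. They were chosen by their own read counts, out of 60649 gene rows of the count table. A gene was taken when its mean was under 0.3 CPM (the count over its library's total count, times 1000000) in both vehicle control groups and at least 2 CPM in both R1881 control groups. 22 rows met these limits, and SLC2A3, SLC26A3, SLC38A4 and STEAP4 were left out by name. The levels of the 18 genes in the control groups are therefore a description of the choice and carry no test, while the P3 and siWDR77 libraries took no part in it.

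LNCaP is a human prostate adenocarcinoma cell line, and the series is about disrupting the contact of the androgen receptor with its coregulator WDR77. Study 1 introduced a construct expressing WDR77-peptide 3 (groups P3_R1881 and P3_vehicle) or an empty vector (EV_R1881 and EV_vehicle). Study 2 introduced siRNAs against WDR77 (siWDR77_R1881 and siWDR77_vehicle) or a non-targeting siRNA (siCtrl_R1881 and siCtrl_vehicle). All 8 groups were moved to androgen-deprived medium and then given 5 nM R1881 or ethanol for 48 h, and each held 3 poly(A)-selected RNA-seq libraries described as biological triplicates. All groups are of this 1 cell line, and neither a selection of transfected cells nor their share is stated.

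The androgen receptor is a nuclear receptor that waits in the cytoplasm with chaperones, enters the nucleus when it binds an androgen, and binds DNA as a dimer at paired copies of a short site close to AGAACA. There it recruits coactivators and raises transcription, mostly from enhancers that lie away from the promoters they act on. WDR77 is a WD-repeat partner of the arginine methyltransferase PRMT5 and is known as a coregulator of the receptor.

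Libraries held 16665915 to 24260446 counts, so 3 counts come to 0.124 to 0.180 CPM in a single library. For a count of 0, 3 counts are about the 95% upper bound by counting error alone. Library siCtrl_vehicle S35 stood farthest from its replicates, with a chi-square per gene of 18.1 and 18.4, against 2.41 to 10.5 for all other pairs within a group. The rule applied without it gave 19 genes, all 18 among them, and of the tests made here between siWDR77_vehicle and siCtrl_vehicle and on the difference in R1881 response in study 2, 0 chosen genes were called with or without it. The siRNA lowered WDR77 to 12.8 ± 1.07 CPM in siWDR77_R1881, against 60.1 ± 1.03 CPM in siCtrl_R1881 (mean ± SD, n = 3), and to 14.6 ± 2.02 CPM in siWDR77_vehicle, against 49.2 ± 2.5 CPM in siCtrl_vehicle. In study 1 WDR77 averaged 95.7 ± 5.06 CPM in P3_R1881, 54.9 ± 2.40 CPM in EV_R1881, 60.8 ± 4.77 CPM in P3_vehicle and 60.1 ± 4.50 CPM in EV_vehicle, and whether a transcript of the construct was counted in it was not tested. KLK3, the gene of prostate-specific antigen and a marker of luminal prostate cells, was detected in every library, with group means of 169.1 to 7377 CPM. Of 7 hepatocyte markers, 6 stayed under 2 CPM in every group, APOA2 had no count in any library, and their sum lay between 0.602 and 3.00 CPM. The 4 immune cell markers summed to at most 0.354 CPM, and CD3E, which marks T cells, had no count in any library.

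The 18 genes were 11 protein-coding genes, 1 T cell receptor constant gene, 2 antisense genes, 1 long intergenic RNA, 2 pseudogenes and 1 feature that GENCODE 29 does not hold. A promoter window, 250 bases before to 50 bases after the RefSeq start, was found for 8 of them. 4 are printed here, those of the marker genes ORM1 and CCDC141 and those of NPPC and AQP4-AS1, which with ORM1 hold the motif matches described next. They are RefSeq sequences of build GRCh38.p14, 5′ to 3′ on the gene's strand, with TATAAA or AGAACA in capitals. The ORM1 window is chr9:114322848-114323147, plus strand. The NPPC window is chr2:231926347-231926646, minus strand. The CCDC141 window is chr2:179050088-179050387, minus strand. The AQP4-AS1 window is chr18:26865058-26865357, plus strand, inside the longer GENCODE span of that gene.
ORM1: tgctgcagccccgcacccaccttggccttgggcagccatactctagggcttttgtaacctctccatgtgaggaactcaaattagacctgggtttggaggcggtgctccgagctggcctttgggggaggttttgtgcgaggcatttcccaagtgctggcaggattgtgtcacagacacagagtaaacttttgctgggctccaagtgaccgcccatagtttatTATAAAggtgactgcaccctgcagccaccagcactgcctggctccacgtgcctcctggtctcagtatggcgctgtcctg
NPPC: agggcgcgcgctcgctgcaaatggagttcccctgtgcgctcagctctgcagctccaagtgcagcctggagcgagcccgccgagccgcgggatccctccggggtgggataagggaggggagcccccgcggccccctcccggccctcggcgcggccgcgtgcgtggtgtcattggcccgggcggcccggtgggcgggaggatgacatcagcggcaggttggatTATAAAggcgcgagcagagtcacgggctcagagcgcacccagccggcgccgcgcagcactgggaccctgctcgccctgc
CCDC141: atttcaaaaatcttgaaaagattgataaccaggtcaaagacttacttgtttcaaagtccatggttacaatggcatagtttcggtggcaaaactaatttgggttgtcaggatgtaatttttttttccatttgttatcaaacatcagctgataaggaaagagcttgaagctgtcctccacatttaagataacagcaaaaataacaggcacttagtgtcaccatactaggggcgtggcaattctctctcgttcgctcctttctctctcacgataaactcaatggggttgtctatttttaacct
AQP4-AS1: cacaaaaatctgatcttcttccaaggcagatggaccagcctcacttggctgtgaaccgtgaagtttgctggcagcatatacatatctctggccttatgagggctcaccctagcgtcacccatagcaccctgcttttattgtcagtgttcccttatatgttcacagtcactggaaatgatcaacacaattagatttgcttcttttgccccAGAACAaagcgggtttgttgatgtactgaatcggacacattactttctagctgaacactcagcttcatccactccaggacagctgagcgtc

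The TATAAA core, searched on the gene's strand, stood at position -29 from the start in both ORM1 and NPPC and in none of the other 6 windows, and 7.71% of 27305 human promoter windows of the same length hold it. AGAACA, searched on both strands, was present in 1 of the 8 windows, that of AQP4-AS1 at position -41, against 14.9% of all windows. The paired element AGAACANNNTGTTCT, which contains AGAACA, was in none of the 8 and in 0.00366% of all windows. GC content of the 8 windows ran from 37.7% in CCDC141 to 85.0% in CENPN-AS1. A match or its absence describes these letters only.

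Without hormone the 18 genes were close to silent in the control groups by the choice itself, and also nearly so in siWDR77_vehicle. Of 54 values per group (18 genes in 3 libraries), 14 were 0 in siWDR77_vehicle against 19 in siCtrl_vehicle, and 6 were 0 in P3_vehicle against 16 in EV_vehicle. No member reached more than 16 counts in a siWDR77_vehicle library, against 9 counts in siCtrl_vehicle. In P3_vehicle the highest count was 48, for CENPN-AS1, against 12 in EV_vehicle, for TGM2. ORM1 had no count in P3_vehicle and none in siWDR77_vehicle.

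**Figure D1:**
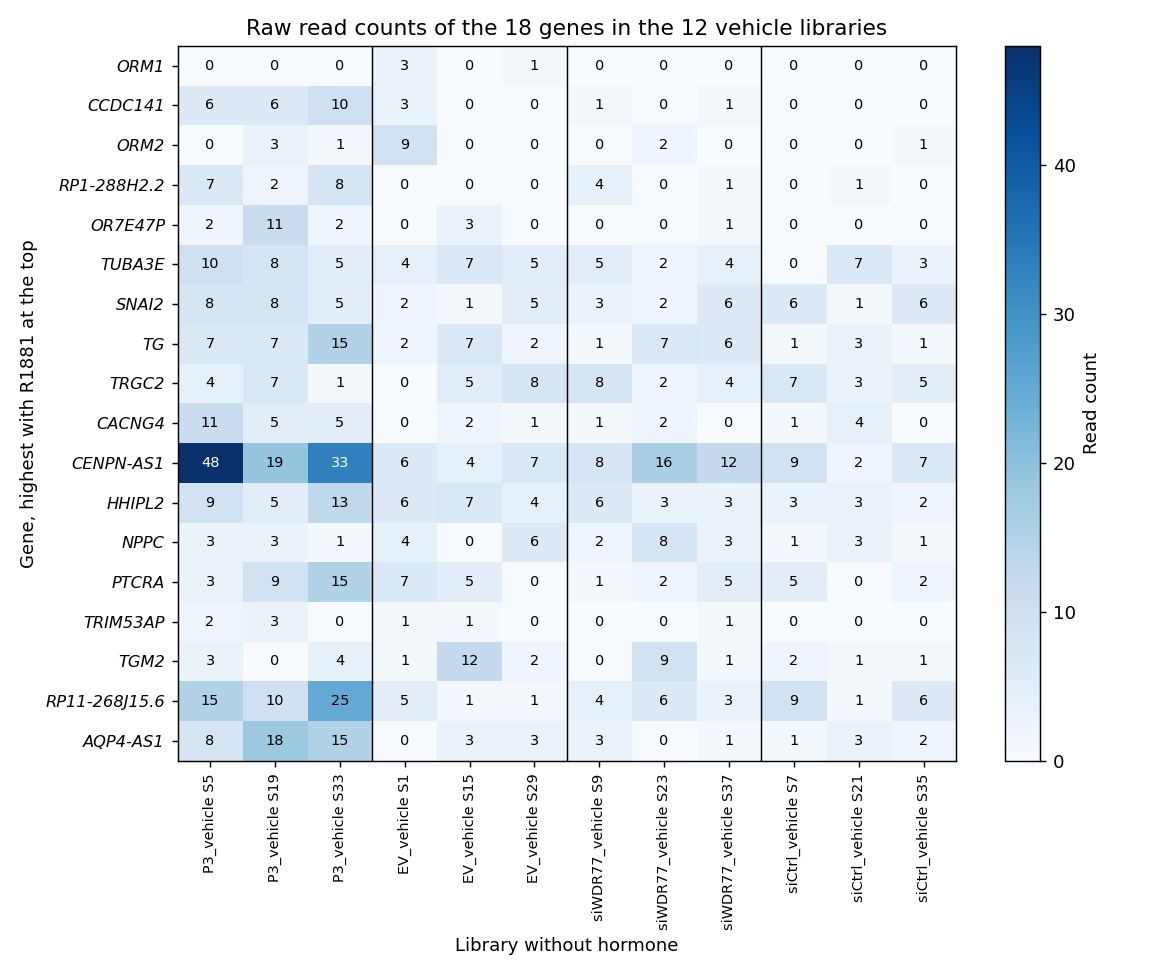
Raw read counts of the 18 genes (rows) in the 12 vehicle libraries (columns), shaded by count. P3_vehicle holds the highest values, up to 48 counts for CENPN-AS1, while no siWDR77_vehicle value passes 16 and no siCtrl_vehicle value passes 9.

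Summed over the 18 genes, the level was 72.5 ± 1.88 CPM in P3_R1881 and 6.90 ± 0.379 CPM in P3_vehicle, a ratio of 10.5. The sum was 135.4 ± 2.62 CPM in EV_R1881 and 2.60 ± 0.307 CPM in EV_vehicle, a ratio of 52.2. In study 2 it was 180.8 ± 7.60 CPM in siWDR77_R1881 and 2.64 ± 0.157 CPM in siWDR77_vehicle, a ratio of 68.5, and 129.8 ± 10.3 CPM in siCtrl_R1881 and 1.85 ± 0.147 CPM in siCtrl_vehicle, a ratio of 70.1. P3 cells thus had the lowest sum with R1881 and the highest without it, and siWDR77 cells the highest with R1881. ORM1 and ORM2 together made up 31.2% of the sum in P3_R1881, 25.7% in EV_R1881, 47.4% in siWDR77_R1881 and 35.7% in siCtrl_R1881. Without these 2 genes, the sum was 49.8 ± 1.5 CPM in P3_R1881 against 100.5 ± 2.18 CPM in EV_R1881, and 95 ± 4.54 CPM in siWDR77_R1881 against 83.5 ± 3.29 CPM in siCtrl_R1881. These are bulk libraries, in which fewer responding cells and less RNA per cell cannot be told apart.

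**Figure D2:**
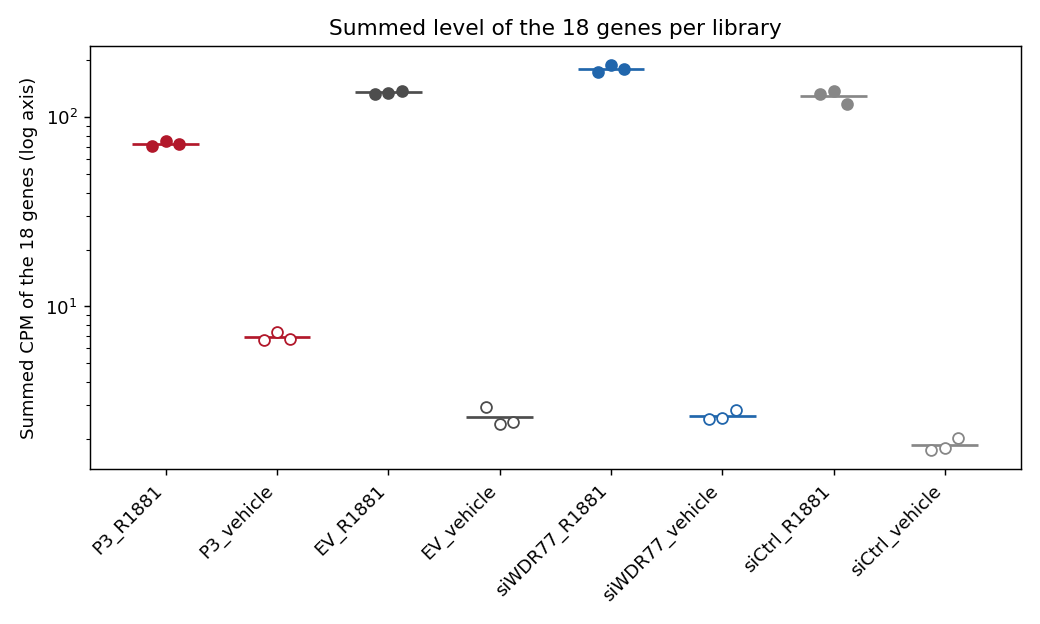
Summed level of the 18 genes in each library (CPM, log axis), with filled points for R1881, open points for vehicle and a line at each group mean. The P3_R1881 libraries lie between 71.0 and 74.6 CPM and the EV_R1881 libraries between 133.6 and 138.4 CPM, and the siWDR77_R1881 libraries, at 173.7 to 188.8 CPM, lie above those of siCtrl_R1881, at 118.3 to 138.0 CPM.

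The first question was whether the switch also occurred in the libraries that had no part in the choice. In siWDR77 cells all 18 genes rose with R1881, while 27.7% of 17893 genes were called higher (edgeR quasi-likelihood test, Benjamini-Hochberg adjusted p under 0.05 over all genes). For each of the 18, every R1881 library lay above every vehicle library, a separation that was not counted over all genes. The median fitted log2 fold change of the 18 was 5.54, against -0.02 for all genes tested. In P3 cells 17 of 18 rose, against 13% of 17772 genes, with a median of 3.67, against -0.02 for all genes tested. The medians were 5.17 in EV cells and 5.38 in siCtrl cells, which chose the genes. With genes that have no vehicle count set at their lower bound (3 counts over the group), all 4 medians kept these values to 2 decimals. The member not called in P3 cells was RP11-268J15.6, at 0.83 ± 0.41 (log2 ± SE, adjusted p = 0.156). Of 35 known androgen-induced genes, 34 rose in siWDR77 cells, with a median of 3.36, and 34 rose in P3 cells, with a median of 1.56. The 3 basal epithelial markers summed to 5.92 to 7.23 CPM in siWDR77_R1881 against 1.44 to 2.02 CPM in siWDR77_vehicle, to 5.34 to 8.81 CPM in siCtrl_R1881 against 0.242 to 1.12 CPM in siCtrl_vehicle, and to 2.93 to 3.49 CPM in P3_R1881 against 2.35 to 2.95 CPM in P3_vehicle. In EV cells they summed to 2.39 to 2.89 CPM with R1881 against 1.89 to 2.88 CPM in vehicle. KRT14, the 1 basal marker that could be tested, rose in siWDR77 cells (2.15) and siCtrl cells (3.43). It was not called in P3 cells (0.40) or EV cells (0.32), and TP63 and KRT5 stayed under 2 CPM in every group. The 3 neural markers summed to 5.55 to 6.96 CPM in siWDR77_R1881 against 3.41 to 3.84 CPM in siWDR77_vehicle, and to 2.48 to 4.62 CPM in P3_R1881 against 2.03 to 3.30 CPM in P3_vehicle. SYP, the neural marker that could be tested, rose in siWDR77 cells (1.12), siCtrl cells (0.53) and EV cells (0.99). It was not called in P3 cells (0.58), and SNAP25 had no count in any library. The part of these markers in the result was not tested. All 18 members passed the filter on low counts in both studies, also with the P3 or siWDR77 libraries taken alone, and the p-values measure only the spread among these triplicates.

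ORM1 and ORM2 encode alpha-1-acid glycoproteins, abundant plasma proteins made mainly by the liver and raised in the acute phase of inflammation. They lie side by side on one strand (ORM1 at chromosome 9, 114323056 to 114326475, plus strand, and ORM2 at 114329869 to 114333252, GRCh38 and GENCODE 29), 3394 bases apart. Their longest transcripts are identical at 95.9% of 760 aligned bases, and 29.6% of the 100-base windows of ORM1 and 35.9% of those of ORM2 occur in the other gene, so the split of reads between them is uncertain.

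With R1881, ORM1 stood at 11.3, 13 and 13.2 CPM in P3_R1881 and at 16.8, 17.6 and 21.8 CPM in EV_R1881 (libraries in the order of their sample numbers, here and below). It stood at 46.4, 52.6 and 40.2 CPM in siWDR77_R1881 and at 21.6, 25.1 and 27.4 CPM in siCtrl_R1881. Its counts were 0 in all 3 libraries of P3_vehicle, siWDR77_vehicle and siCtrl_vehicle, and 3, 0 and 1 in EV_vehicle. From 3 counts over the vehicle group, ORM1 was thus at least 259-fold higher in P3_R1881 than in P3_vehicle. By the same bound it was at least 942-fold higher in siWDR77_R1881 than in siWDR77_vehicle (counting error only).

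ORM2 followed closely, at 9.64, 9.80 and 10.9 CPM in P3_R1881 and 16.1, 18 and 14.4 CPM in EV_R1881. In study 2 it stood at 36.7, 41.4 and 40.0 CPM in siWDR77_R1881 and 16.9, 22.8 and 25.2 CPM in siCtrl_R1881. Its vehicle counts were 0, 3 and 1 in P3_vehicle, 9, 0 and 0 in EV_vehicle, 0, 2 and 0 in siWDR77_vehicle and 0, 0 and 1 in siCtrl_vehicle, so all of the EV_vehicle reads came from library S1, which also held 3 of the 4 ORM1 reads of that group. ORM2 rose by 7.23 ± 0.48 on the log2 scale in P3 cells (adjusted p = 5.18e-10). In siWDR77 cells the ratio of R1881 to vehicle counts was 1199 (95% exact interval 331.6 to 9906, counting error only). For both genes the 4 R1881 groups ranked siWDR77_R1881, siCtrl_R1881, EV_R1881 and P3_R1881, and only siCtrl_R1881 and EV_R1881 overlapped, at one library for each gene.

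Most other acute-phase genes were not expressed in these cells. Of 29 acute-phase and liver plasma protein genes, 6 were expressed enough to be tested in study 1, ORM1 and ORM2 included. In P3 cells 2 of the 6 rose, which were ORM1 and ORM2, against 13% of all genes called higher. 1 fell, CP, the ceruloplasmin gene (-2.11 ± 0.74, adjusted p = 0.0356), against 7.96% of all genes called lower. TTR, the transthyretin gene, differed by -0.52 ± 0.35 in P3 cells (adjusted p = 0.339). In EV cells 3 of the 6 rose and 1 fell, against 24.9% and 26.4% of all genes. In siWDR77 cells 3 of 5 tested genes rose, against 27.7% of all genes. They were ORM1, ORM2 and HPX, the gene of the heme carrier hemopexin (1.73 ± 0.36, adjusted p = 0.000217). In siCtrl cells 3 of the 5 also rose, against 25.7% of all genes. The list holds ORM1 and ORM2, which were chosen for their response.

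TG, the thyroglobulin gene of the thyroid, reached 3.68, 3.11 and 3.27 CPM in P3_R1881 and 6.57, 6.08 and 6.79 CPM in EV_R1881. It reached 10.8, 9.38 and 7.88 CPM in siWDR77_R1881 and 5.57, 6.23 and 5.05 CPM in siCtrl_R1881, and no vehicle library passed 15 counts. TG rose by 2.91 ± 0.31 in P3 cells (adjusted p = 4.5e-10) and by 5.61 ± 0.30 in siWDR77 cells (adjusted p = 4.81e-14). The siWDR77_R1881 libraries all lay above the siCtrl_R1881 libraries, and the P3_R1881 libraries all below the EV_R1881 libraries.

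NPPC, which encodes the precursor of C-type natriuretic peptide, reached 2.29 ± 0.108 CPM in P3_R1881 and 3.84 ± 1.22 CPM in EV_R1881 (mean ± SD, n = 3). Its mean was 7.84 ± 1.83 CPM in siWDR77_R1881 and 4.64 ± 1.79 CPM in siCtrl_R1881. HHIPL2, which encodes a relative of the hedgehog-interacting protein, was at 3.06 ± 0.706 CPM in P3_R1881 and 6.20 ± 0.146 CPM in EV_R1881, and near 2.3 CPM in both R1881 groups of study 2 (2.27 ± 0.398 in siWDR77_R1881 and 2.29 ± 0.630 in siCtrl_R1881). Both rose with R1881 in P3 cells, NPPC by 4.34 ± 0.51 and HHIPL2 by 2.87 ± 0.31, and in siWDR77 cells, NPPC by 5.46 ± 0.38 and HHIPL2 by 3.76 ± 0.42.

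CCDC141 encodes a coiled-coil protein studied in neuronal migration and expressed in heart and skeletal muscle. It spans chromosome 2, 178829757 to 179050086, minus strand, and 0.251% of its 100-base windows occur in TTN, the titin gene near it. CCDC141 reached 10.6, 9.03 and 8.84 CPM in P3_R1881 and 28.1, 24.3 and 22.6 CPM in EV_R1881, the highest level of any member in that group. It reached 13.6, 16.8 and 12.9 CPM in siWDR77_R1881 and 14.0, 15.6 and 14.5 CPM in siCtrl_R1881. The P3_R1881 libraries lay below those of the other 3 R1881 groups, and the 2 groups of study 2 overlapped. Its vehicle counts were 6, 6 and 10 in P3_vehicle, 3, 0 and 0 in EV_vehicle, 1, 0 and 1 in siWDR77_vehicle and 0 in all 3 libraries of siCtrl_vehicle. It rose by 4.8 ± 0.24 in P3 cells (adjusted p = 1.17e-19), and in siWDR77 cells the ratio of R1881 to vehicle counts was 438.5 (95% exact interval 121.1 to 3626). The 4 striated muscle markers MYH7, ACTN2, CKM and TNNT2 summed to at most 0.876 CPM in any library.

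**Figure D3:**
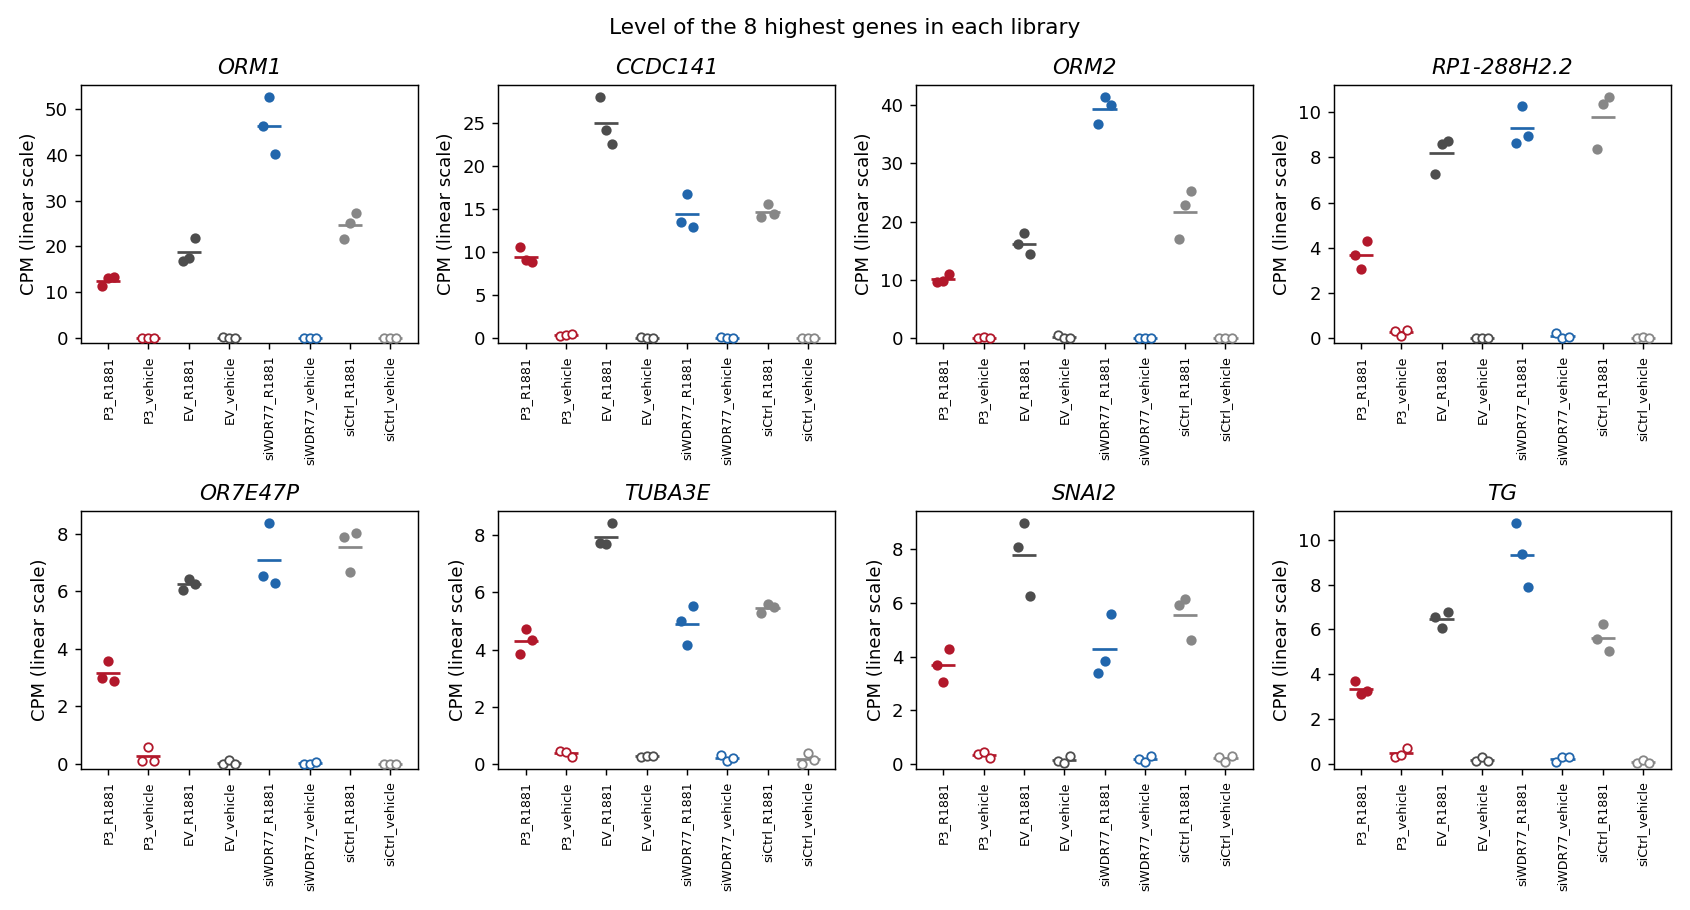
Level (CPM, linear scale) of the 8 genes with the highest mean over EV_R1881 and siCtrl_R1881 in each of the 24 libraries, with filled points for R1881, open points for vehicle and a line at each group mean. ORM1, ORM2 and TG are highest in siWDR77_R1881, CCDC141, TUBA3E and SNAI2 are highest in EV_R1881, and P3_R1881 is the lowest R1881 group for each of the 8.

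TUBA3E encodes an alpha-tubulin, and 19.8% of its 100-base windows also occur in its relatives TUBA3D and TUBA3C. It stood at 3.86, 4.71 and 4.33 CPM in P3_R1881 and 7.72, 7.71 and 8.44 CPM in EV_R1881. It stood at 4.99, 4.17 and 5.51 CPM in siWDR77_R1881 and 5.27, 5.58 and 5.49 CPM in siCtrl_R1881. It rose by 3.60 ± 0.28 in P3 cells and by 5.00 ± 0.40 in siWDR77 cells, and its highest vehicle count was 10, in P3_vehicle.

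SNAI2 encodes Slug, a zinc-finger repressor known for its part in the epithelial to mesenchymal transition. SNAI2 stood at 3.68, 3.06 and 4.28 CPM in P3_R1881 and 8.09, 9.00 and 6.26 CPM in EV_R1881. It stood at 3.40, 3.84 and 5.61 CPM in siWDR77_R1881 and 5.92, 6.13 and 4.62 CPM in siCtrl_R1881, with vehicle counts of at most 8 in any library. It rose by 3.49 ± 0.32 in P3 cells and by 4.81 ± 0.38 in siWDR77 cells. Of the 4 fibroblast markers, COL1A2 had no count in any library, and the markers summed to 6.11 to 7.74 CPM in siWDR77_R1881 against 18.7 to 21.9 CPM in siWDR77_vehicle. In P3 cells they summed to 15.4 to 18.5 CPM with R1881, against 17.6 to 21.8 CPM in vehicle. In EV cells the sums were 11.5 to 13.6 CPM against 16.3 to 16.7 CPM. In siCtrl cells they were 8.43 to 10.2 CPM against 22.2 to 27.3 CPM. The part of the fibroblast markers in the result was not tested.

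CACNG4 encodes an auxiliary subunit of calcium channels and AMPA receptors. It had the lowest ratio of P3_R1881 to EV_R1881 of the 18 genes, 0.362, with 2.57, 2.33 and 2.36 CPM in P3_R1881 and 6.88, 4.93 and 8.26 CPM in EV_R1881. In study 2 it stood at 2.84, 2.75 and 3.94 CPM in siWDR77_R1881 and 3.14, 3.49 and 3.46 CPM in siCtrl_R1881. It rose by 2.90 ± 0.35 in P3 cells, and in siWDR77 cells the ratio of R1881 to vehicle counts was 64.5 (95% exact interval 21.8 to 315.1). TGM2, the gene of tissue transglutaminase, was among the lowest members, at 1.65 ± 0.453 CPM in P3_R1881 and 3.04 ± 0.978 CPM in EV_R1881. It averaged 2.22 ± 0.268 CPM in siWDR77_R1881 and 2.01 ± 0.308 CPM in siCtrl_R1881, just inside the limit of 2 CPM. It rose by 3.89 ± 0.58 in P3 cells and by 4.03 ± 0.50 in siWDR77 cells.

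Both members of the T cell receptor system rose, in cells where CD3E had no count. TRGC2 is a constant gene of the T cell receptor gamma locus, which is known for a short transcript in prostate epithelium. It stood at 3.10, 2.48 and 3.77 CPM in P3_R1881 and 2.89, 4.45 and 3.90 CPM in EV_R1881, which overlapped. It stood at 11.4, 11.8 and 13.5 CPM in siWDR77_R1881 and 5.87, 6.53 and 6.59 CPM in siCtrl_R1881, which did not overlap. It rose by 4.04 ± 0.46 in P3 cells and by 5.98 ± 0.29 in siWDR77 cells. TRGC1, 8307 bases away, shares 24% of TRGC2's 100-base windows and also rose, by 2.67 in P3 cells and 5.27 in siWDR77 cells, so reads of the pair are hard to assign.

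PTCRA encodes the alpha chain of the pre-T cell receptor. It stood at 2.22, 3.64 and 1.86 CPM in P3_R1881 and 4.15, 4.93 and 4.54 CPM in EV_R1881. It stood at 2.02, 1.18 and 1.48 CPM in siWDR77_R1881 and 2.55, 2.69 and 2.55 CPM in siCtrl_R1881, the lowest ratio between these groups (0.602), with every siWDR77_R1881 library below every siCtrl_R1881 library. It rose by 2.64 ± 0.42 in P3 cells and by 3.81 ± 0.52 in siWDR77 cells. GNMT, a glycine methyltransferase gene 34923 bases away, rose by 3.22 in P3 cells and 3.91 in siWDR77 cells.

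Of the non-coding members, RP1-288H2.2, a long intergenic RNA, lies wholly within the olfactory receptor pseudogene OR7E47P on the opposite strand of chromosome 12 (52092485 to 52104297 on minus within 52084744 to 52108261 on plus). SMIM41 overlaps both, and no source here states whether counting used strand, so their reads cannot be told apart with certainty. RP1-288H2.2 stood at 3.68, 3.06 and 4.28 CPM in P3_R1881, the same counts as SNAI2 (63, 63 and 76), and 7.25, 8.62 and 8.73 CPM in EV_R1881. It stood at 8.65, 10.3 and 8.94 CPM in siWDR77_R1881 and 8.36, 10.4 and 10.7 CPM in siCtrl_R1881. It had no count in EV_vehicle, against 7, 2 and 8 counts in P3_vehicle, and rose by 3.80 ± 0.33 in P3 cells and by 7 ± 0.37 in siWDR77 cells.

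OR7E47P gave 2.98, 3.59 and 2.87 CPM in P3_R1881 and 6.04, 6.41 and 6.26 CPM in EV_R1881. It gave 6.54, 8.38 and 6.30 CPM in siWDR77_R1881 and 7.88, 6.68 and 8.04 CPM in siCtrl_R1881. 56.2% of its 100-base windows occur elsewhere, mainly in OR7E109P. It rose by 3.74 ± 0.41 in P3 cells, where library S19 held 11 of the 15 vehicle counts. In siWDR77 cells the ratio of R1881 to vehicle counts was 430.2 (95% exact interval 76.8 to 17030). Both members of this locus were lower in P3_R1881 than in EV_R1881 in every library and overlapped between the 2 R1881 groups of study 2.

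CENPN-AS1 is antisense to the centromere protein gene CENPN, which it overlaps over 16323 bases, and it was the least silent member without hormone. It stood at 3.10, 2.81 and 3.27 CPM in P3_R1881 and 2.21, 1.02 and 1.53 CPM in P3_vehicle, against 3.15, 3.16 and 4.07 CPM in EV_R1881 and 0.334, 0.165 and 0.381 CPM in EV_vehicle. In study 2 it stood at 5.46, 6.20 and 7.41 CPM in siWDR77_R1881 and 6.58, 5.19 and 4.91 CPM in siCtrl_R1881. It rose by 1.02 ± 0.28 in P3 cells (adjusted p = 0.00569) and by 3.72 ± 0.27 in siWDR77 cells. CENPN itself rose by 1.99 in P3 cells and 5.11 in siWDR77 cells, and 21.1% of the windows of CENPN-AS1 occur in another gene.

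AQP4-AS1 overlaps the aquaporin gene AQP4 over 13781 bases on the opposite strand. It stood at 0.993, 1.21 and 1.86 CPM in P3_R1881 and 0.368, 0.965 and 0.697 CPM in P3_vehicle, against 2.68, 3.06 and 2.60 CPM in EV_R1881 and 0, 0.124 and 0.163 CPM in EV_vehicle. It stood at 1.68, 1.85 and 1.81 CPM in siWDR77_R1881 and 2.25, 1.95 and 2.41 CPM in siCtrl_R1881. Its rise in P3 cells, 1.10 ± 0.40, was at the edge of the test (adjusted p = 0.0480) and was lost when any of P3_vehicle S5 (adjusted p = 0.225), P3_vehicle S33 (0.0936), P3_R1881 S20 (0.0766) or P3_R1881 S34 (0.270) was left out. In siWDR77 cells it rose by 4.90 ± 0.55.

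RP11-268J15.6 stood at 1.46, 1.5 and 1.07 CPM in P3_R1881 and 0.691, 0.536 and 1.16 CPM in P3_vehicle, which overlapped. In EV cells it stood at 1.84, 1.72 and 2.77 CPM with R1881 and 0.278, 0.0412 and 0.0544 CPM in vehicle. Its level was 4.53 ± 1.20 CPM in siWDR77_R1881 and 2.90 ± 0.655 CPM in siCtrl_R1881, and it rose by 4.66 ± 0.39 in siWDR77 cells. TRIM53AP, a TRIM pseudogene of which 66.1% of windows occur in other genes, reached 1.36 ± 0.386 CPM in P3_R1881 and 2.5 ± 0.436 CPM in EV_R1881. It reached 3.70 ± 0.661 CPM in siWDR77_R1881 and 2.93 ± 0.496 CPM in siCtrl_R1881. It rose by 4.05 ± 0.59 in P3 cells, and in siWDR77 cells the ratio of R1881 to vehicle counts was 226.7 (95% exact interval 40.3 to 8989).

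Per kilobase of exon, ORM1 and ORM2 were also the highest members with R1881, at 51.5 and 51.8 CPM per kb in siWDR77_R1881. RP1-288H2.2 was next in P3_R1881, EV_R1881, siWDR77_R1881 and siCtrl_R1881, at 7.17 to 19.1 CPM per kb. CCDC141, with 15446 bases of exon, came to 0.614 CPM per kb in P3_R1881 and 1.62 CPM per kb in EV_R1881, among the 5 lowest of the 17 members that have a length in both groups. AQP4-AS1 and TGM2 were at the bottom, at 0.195 and 0.205 CPM per kb in P3_R1881.

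The second question was how the P3 construct changed these levels under R1881. Since EV_R1881 helped to choose the 18 genes, the test was made on the 36 genes that pass the study 2 part of the rule, which uses no library of study 1. 30 of these 36 fell in P3_R1881 relative to EV_R1881 and 0 rose, while 18.9% of all 17772 genes were called lower and 18.1% higher (edgeR; unadjusted p under 0.05 in 31 lower and 0 higher, and DESeq2 called 29 lower and 0 higher). The median log2 difference was -1.07, against 0.03 for all genes tested. The 36 hold the 18 members and 18 further genes, which failed the study 1 part of the rule, and 15 of each were called lower. EV libraries thus sorted the 36 into these parts. Among the further genes, PGC, the gene of the pepsinogen progastricsin, fell by 1.25 ± 0.12 on the log2 scale (adjusted p = 1.27e-11) and ADAM7, an epididymal metalloprotease gene, by 1.05 ± 0.16 (adjusted p = 1.19e-06), and both were picked after their values were seen.

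All 18 members had a lower mean in P3_R1881 than in EV_R1881, with ratios of 0.362 to 0.884 and a median of 0.541. For 16 of them every P3_R1881 library lay below every EV_R1881 library, and CENPN-AS1 and TRGC2 overlapped. How many of all genes separate in this way was not counted, so the 16 are a description. The fitted differences of the marker genes were -1.56 ± 0.14 for CCDC141 and -0.73 ± 0.14 for ORM1. The largest was that of CACNG4, -1.62 ± 0.25, and the smallest were those of CENPN-AS1 (-0.33 ± 0.26, adjusted p = 0.34) and TRGC2 (-0.43 ± 0.31, adjusted p = 0.301). ORM2 differed by -0.84 ± 0.22 (adjusted p = 0.00481 with edgeR), a call that DESeq2 did not make (adjusted p = 0.535). The calls of NPPC, PTCRA, TGM2 and TRIM53AP were each lost when 1 of 3 to 5 single libraries was left out, with adjusted p up to 0.150, 0.0869, 0.176 and 0.108 in that order. The fit's scaling by itself sets P3_R1881 lower than EV_R1881 by 0.16 on the log2 scale, compared with unscaled CPM. Of the 35 androgen-induced genes, 34 also fell in P3_R1881 relative to EV_R1881, with a median of -0.95, and of 17 tested targets shared with the glucocorticoid receptor, 12 fell and 1 rose, with a median of -0.38.

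**Figure D4:**
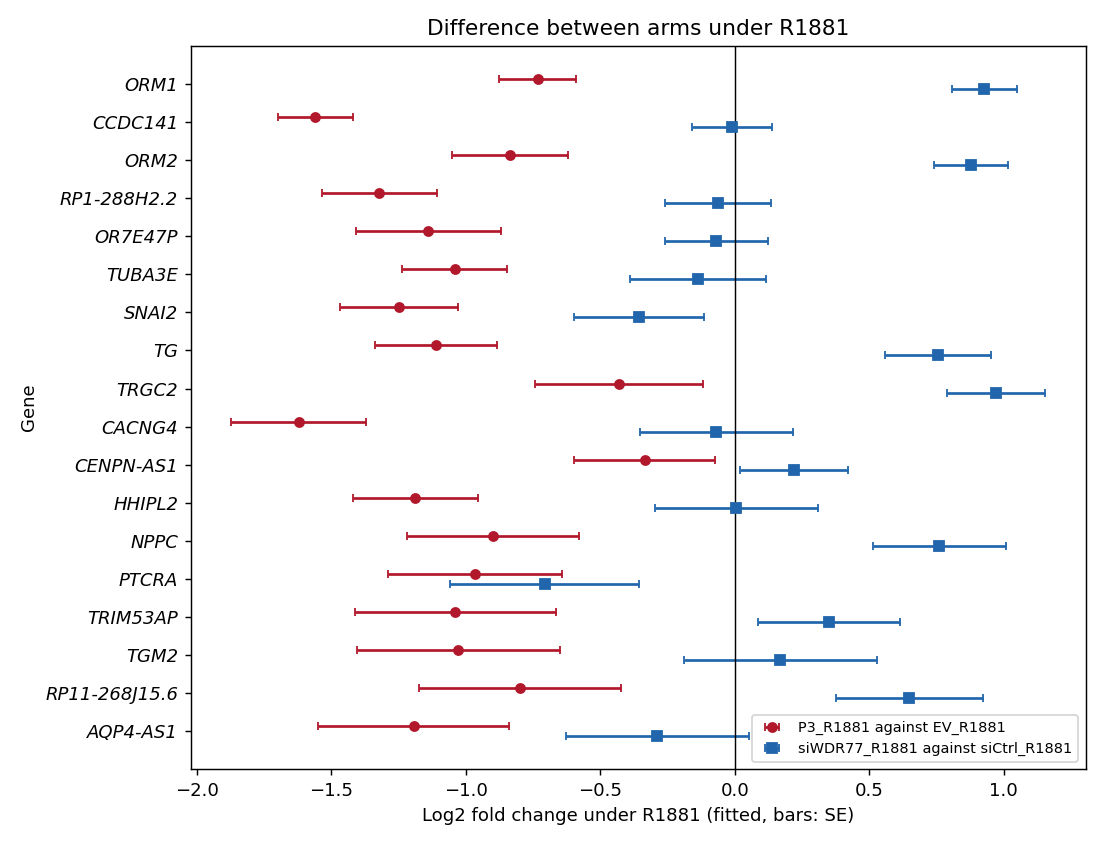
Fitted log2 fold change of each of the 18 genes under R1881, with bars of 1 SE, for P3_R1881 against EV_R1881 (circles) and siWDR77_R1881 against siCtrl_R1881 (squares). All circles lie left of 0, from -1.62 for CACNG4 to -0.33 for CENPN-AS1, while the squares lie on both sides, from -0.71 for PTCRA to 0.97 for TRGC2.

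The same 36 genes were tested without hormone. 9 of them were higher in P3_vehicle than in EV_vehicle and 0 lower, while 7.93% of all genes were called higher (edgeR; 14 higher and 1 lower at an unadjusted p under 0.05, and DESeq2 called 9 higher and 0 lower). 6 of the 9 were members. Members were chosen for low counts in EV_vehicle, so the values given for them are a description. The median difference was 1.16 over the 18 members and 0.247 over the 18 further genes, of which 3 were called. The further genes failed the study 1 limits, 14 of them only by 0.3 CPM or more in EV_vehicle. EV_vehicle thus sorted both parts, so this contrast is a description, and the test is that of the undivided 36. CENPN-AS1 differed by 2.39 ± 0.39, RP11-268J15.6 by 2.64 ± 0.59 and AQP4-AS1 by 2.61 ± 0.61 on the log2 scale (adjusted p = 3.26e-05, 0.00175 and 0.00284). CCDC141 had 22 counts in P3_vehicle and 3 in EV_vehicle, a ratio of 7.18 (95% exact interval 2.16 to 37.5), and CACNG4 had 21 counts in P3_vehicle and 3 in EV_vehicle, a ratio of 6.86 (2.05 to 35.9). RP1-288H2.2 was at least 5.55-fold higher, from 3 counts over EV_vehicle (counting error only). CCDC141 lost its call without EV_vehicle S15 (adjusted p = 0.0819), and CACNG4 without EV_vehicle S1 (0.0669) or P3_vehicle S5 (0.113). The 3 further genes called were DLX1, PGC and RP11-65J21.4. DLX1 lost its call without EV_vehicle S15 (adjusted p = 0.0554) or P3_vehicle S33 (0.108). RP11-65J21.4 lost its call without EV_vehicle S15 (0.119), EV_vehicle S29 (0.0875) or P3_vehicle S5 (0.186). Of the 35 androgen-induced genes, 19 were also higher in P3_vehicle than in EV_vehicle and 1 was lower, with a median of 0.283.

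Of 496 tested genes under 0.3 CPM in siCtrl_vehicle, 75 (15.1%) were called higher in P3_vehicle than in EV_vehicle and 0 lower, and the others were not called, with a median difference of 0.70 over all 496. Genes this low enter the test only by passing the filter through the counts of some study 1 libraries, so the 75 to 0 split is a description. More widely, 16789 rows had some count but a mean under 0.3 CPM in every EV and siCtrl group. They held 0.1005% to 0.1538% of the counts in P3_vehicle libraries, against 0.0714% to 0.0753% in EV_vehicle. With R1881 the shares were 0.0932% to 0.109% in P3_R1881 and 0.0636% to 0.0721% in EV_R1881. These rows were chosen by low EV and siCtrl means, so the shares are a description. The part of these low genes and rows in the result was not tested.

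The difference in R1881 response between P3 and EV cells, the interaction of construct and hormone, was lower in 22 of the 36 genes and higher in 0, while 11.1% of all genes were called lower and 11.5% higher (edgeR; 24 lower and 0 higher at an unadjusted p under 0.05, and DESeq2 called 22 lower and 0 higher). Of the 35 androgen-induced genes, 32 were also called lower and 0 higher, with a median of -1.2. 12 of the 22 were members. EV libraries helped to choose these, so the sizes given for members are a description. The other 10 were among the 18 further genes, whose median was -1.38, against -2.25 for the members. The further genes failed the study 1 limits, so EV libraries sorted both parts and these medians are a description too. SNAI2 differed by -2.49 ± 0.62 and TG by -2.38 ± 0.54. CCDC141, CACNG4, OR7E47P and RP1-288H2.2 were among the 12 but had 0 to 3 counts in all of EV_vehicle, so no size is given for them. The call of OR7E47P was lost without P3_vehicle S19 (adjusted p = 0.245). Among the further genes, the calls of TBX15, GRPR and SCIRT were lost under some alternatives (adjusted p up to 0.132, 0.0754 and 0.0532). With 1 library left out, 17 to 22 of the 36 genes were called lower. ORM2 (0.37 ± 1.03), NPPC (-0.29 ± 0.98), TGM2 (0.11 ± 0.64) and TRGC2 (-0.22 ± 0.80) were not called, at adjusted p of 0.852 to 0.933, and neither were TRIM53AP (adjusted p = 0.222) and ORM1 (adjusted p = 0.170), which had no count in P3_vehicle.

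The third question was how the siRNA against WDR77 changed these levels. The test was made on the 27 genes that pass the study 1 part of the rule, which uses no library of study 2, and 26 of them passed the filter on low counts (KRT6B did not). 5 of the 26 rose in siWDR77_R1881 relative to siCtrl_R1881 and 0 fell, while 3.9% of all 17893 genes were called higher and 3.31% lower (edgeR; 7 higher and 0 lower at an unadjusted p under 0.05, and DESeq2 called 5 higher and 0 lower). The 5 were ORM1 (0.93 ± 0.12, adjusted p = 0.000164), ORM2 (0.88 ± 0.14, adjusted p = 0.000461), TRGC2 (0.97 ± 0.18, adjusted p = 0.00176), TG (0.75 ± 0.20, adjusted p = 0.019) and NBL1, which encodes a secreted BMP antagonist and is no member (0.72 ± 0.18, adjusted p = 0.0126). For the 4 members every siWDR77_R1881 library lay above every siCtrl_R1881 library, with ratios of 1.66 for TG to 1.94 for TRGC2.

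The other members did not pass the test under R1881. CCDC141 differed by -0.01 ± 0.15, SNAI2 by -0.36 ± 0.24 and PTCRA by -0.71 ± 0.35 (adjusted p = 0.985, 0.439 and 0.249). NPPC was 1.69 times as high in siWDR77_R1881, with libraries that overlapped (adjusted p = 0.0655). AQP4-AS1, like PTCRA, had all siWDR77_R1881 libraries below those of siCtrl_R1881, at a ratio of 0.807 (adjusted p = 0.7). Of the 18 ratios, 9 lay above 1 and 9 below. The median log2 difference of the 26 genes was 0.18, and of the 35 androgen-induced genes 7 rose and 2 fell. Without library siCtrl_R1881 S8, 3 genes were called, and ORM1, ORM2 and TRGC2 were called under every alternative tried, whereas TG was lost when siCtrl_R1881 S36 (adjusted p = 0.0936), siCtrl_R1881 S8 (0.0724), siWDR77_R1881 S10 (0.0985) or siWDR77_R1881 S24 (0.0707) was left out, and NBL1 when siCtrl_R1881 S36 (0.0566), siCtrl_R1881 S8 (0.0725) or siWDR77_R1881 S38 (0.0502) was left out.

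Without hormone, 0 of the 26 genes were called between siWDR77_vehicle and siCtrl_vehicle with edgeR, against 0.682% of all genes called higher and 0.844% lower, and DESeq2 also called 0 (2 higher and 0 lower at an unadjusted p under 0.05). For 17 of the 18 members the libraries overlapped, which was not counted over all genes. The exception was CENPN-AS1, with 8, 16 and 12 counts in siWDR77_vehicle against 9, 2 and 7 in siCtrl_vehicle. The difference in R1881 response between siWDR77 and siCtrl cells was called for 0 of the 26 genes and for 0 of all genes with edgeR (none of the 26 at an unadjusted p under 0.05), and DESeq2 called 0 of the 26.

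The surroundings of the members responded as well. Of 58 tested genes within 100 kb of a member, 23 (39.7%) were higher with R1881 in P3 cells, against 13% of all genes, and 40 (69.0%) in EV cells, against 24.9%. In study 2, 43 of 59 (72.9%) were higher in siWDR77 cells, against 27.7%, and 41 of 59 (69.5%) in siCtrl cells, against 25.7%. Leaving out neighbours that overlap a member, whose reads can be shared without strand, the shares were 34% in P3 cells, 66.0% in EV cells, 70.6% in siWDR77 cells and 68.6% in siCtrl cells. Several of these genes share a locus and are not independent.

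Near OR7E47P and RP1-288H2.2 on chromosome 12, ATG101, an autophagy initiation gene, rose by 0.67 in P3 cells and 1.69 in siWDR77 cells, and NR4A1, an orphan nuclear receptor gene, rose by 1.34 in P3 cells and 3.26 in siWDR77 cells. Near TRIM53AP, TRIM49D2, a gene of the TRIM family whose members share sequence with it, rose by 2.60 in P3 cells and 6.25 in siWDR77 cells, and near TUBA3E the POTE ankyrin gene POTEF rose by 0.99 in P3 cells and 2.67 in siWDR77 cells. Other neighbours did not follow. SESTD1, 51606 bases from CCDC141, fell by 0.35 on the log2 scale in siWDR77 cells and differed by -0.19 in P3 cells, where it was not called. COL27A1, a collagen gene 10545 bases from ORM1, differed by -0.43 in P3 cells and -0.87 in siWDR77 cells and was called in neither, while it was called lower with R1881 in EV cells (-1.67, adjusted p = 0.0140) and in siCtrl cells (-1.28, adjusted p = 0.0314).

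**Figure D5:**
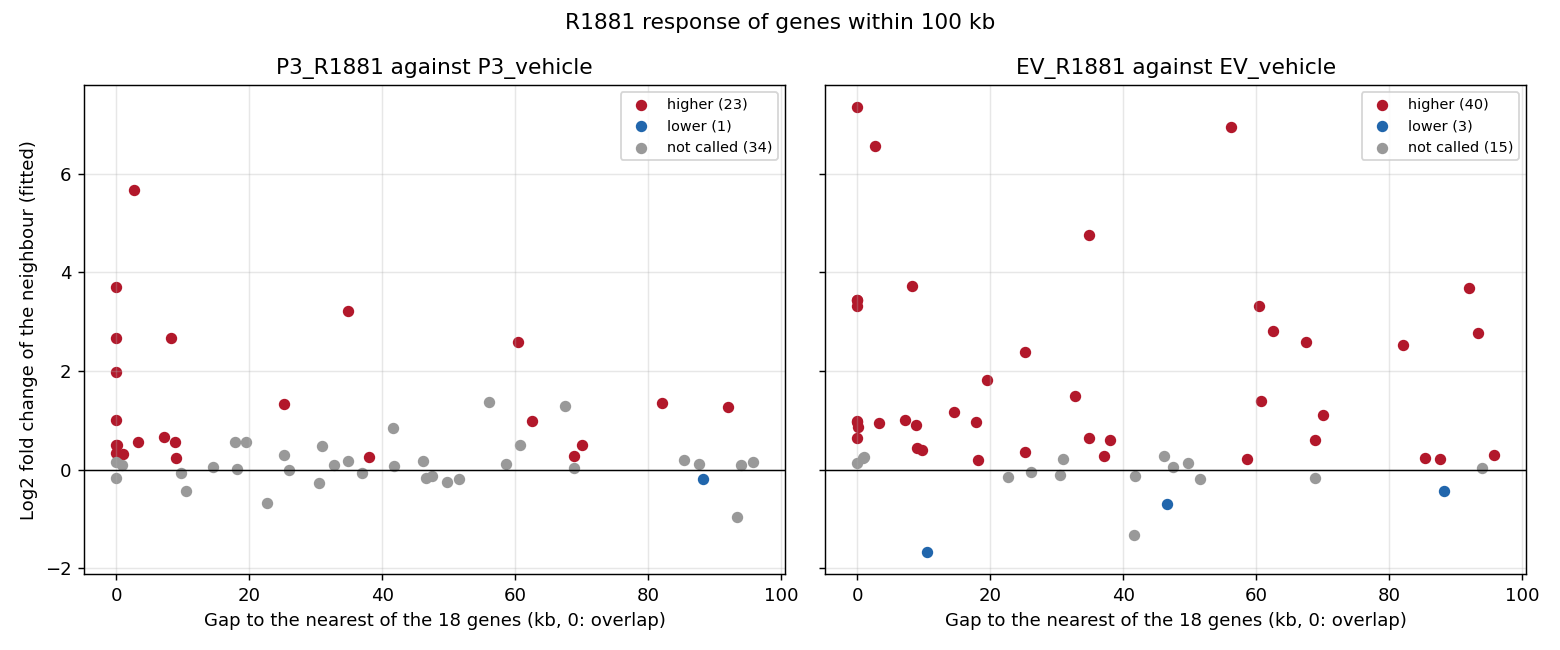
Fitted log2 fold change with R1881 of the tested genes within 100 kb of a member, against the distance to the nearest member in kb (0 for an overlap), in P3 cells (left) and EV cells (right), coloured by the edgeR call. 23 of 58 genes are higher in P3 cells and 40 of 58 in EV cells.

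At the limits of the rule the choice was a matter of few reads. CENPN-AS1 (0.293 CPM), HHIPL2 (0.280) and TUBA3E (0.261) were just inside the limit in EV_vehicle, and DLX1 (0.316), CTNNA2 (0.352) and RP11-1060J15.4 (0.362) just outside. In siCtrl_vehicle CENPN-AS1 (0.284), RP11-268J15.6 (0.25) and TRGC2 (0.240) were just inside, and ARMC12 (0.310), NBL1 (0.353) and EPS15-AS1 (0.504) just outside. With R1881, RP11-268J15.6 (2.11 CPM), TRIM53AP (2.5) and AQP4-AS1 (2.78) were just inside in EV_R1881, and RP11-65J21.4 (1.72) and CFAP221 (1.27) just outside. TGM2 (2.01), AQP4-AS1 (2.2) and HHIPL2 (2.29) were just inside in siCtrl_R1881, and CTD-2311B13.5 (1.95), RP11-33I11.4 (1.82) and PLA2G4E (1.32) just outside. Under the same limits, 4 members fell below 2 CPM in P3_R1881 (AQP4-AS1, RP11-268J15.6, TGM2 and TRIM53AP) and 2 in siWDR77_R1881 (AQP4-AS1 and PTCRA), while 10 members passed 0.3 CPM in P3_vehicle and 1, CENPN-AS1, in siWDR77_vehicle.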

How the data were processed

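The authors deposited raw read counts per gene for 24 libraries, in 1 table of 60649 rows, and all 24 columns were used. Per the submitters' processing notes, the build was GRCh38.p7 and the tools were bcl2fastq 2.20, STAR 2.7.9a and featureCounts (Subread 1.6.4). Annotation release, strand setting and handling of multiply aligned reads: not given in the sources used here. Per the file headers, 3 columns of P3_R1881 also carry the word siRNA, and they were matched to the titles by sample number. The samples were grouped by their labels.

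Levels are CPM over the unscaled library total. Overlap of libraries between groups was counted for members only, so it has no share over all genes beside it. Tests used edgeR 4.0.16 in R 4.3.3 on the counts of the 12 libraries of each study, with TMM scaling (factors 0.893 to 1.11), filterByExpr, a mean per group and the robust quasi-likelihood F test. Called means an adjusted p (Benjamini-Hochberg) under 0.05 over all genes tested (17772 in study 1 and 17893 in study 2), and 5 comparisons were made per study. TMM shifts R1881 against vehicle by 0.09 (P3), 0.17 (EV), 0.30 (siWDR77) and 0.26 (siCtrl) on the log2 scale, compared with unscaled CPM. The SE of a log2 fold change was derived from its test, as its absolute value over the square root of the F value. It is therefore approximate, above all for genes with few vehicle counts. Arms were compared on genes chosen by the part of the rule that uses the other study. The scripts were tested on simulated data. Alternatives were RLE size factors, no filter, DESeq2 1.42.0, a replicate block, all 24 libraries in one fit, each library left out in turn and other limits for the rule. Folds against a group without counts use 3 counts over the group, and 1 to 3 counts give an exact 95% interval. Reads carry no molecular identifiers, so floors and intervals cover counting error only. Libraries were matched across groups by the 3 series of their sample numbers. Within a series, P3_R1881 and P3_vehicle libraries deviated together (correlations of 0.194, 0.216 and 0.139). This pairs them as a pattern of the data, since the labels do not say what the number marks. In the other pairs of groups correlations were -0.11 to 0.16 and not all above 0.1. Every pair of libraries in a group differed by more than sampling noise.

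Coordinates and lengths are from GENCODE 29 (GRCh38), and promoters from RefSeq. Shared 100-base windows were counted over GENCODE transcripts. The genes named are ORM1 and CCDC141, the 8 highest members with R1881, the 3 highest and lowest ratios between arms under R1881, members not called, and the 3 genes inside and outside each limit. The members, lists and this rule were chosen with earlier results of these data known.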

Additional observations from a re-analysis of the deposited data

Results flagged for a closer look

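The response to R1881 differed between P3 and EV cells by a test of the difference itself (edgeR, interaction of construct and hormone). Of the 36 genes chosen in study 2 alone, 22 responded less in P3 cells, 10 of them among the 18 genes that are no members. The medians were -1.38 for those 18 and -2.25 for the members. EV libraries sorted the 36 into members and the rest, so these medians and the sizes that follow are a description. Of the 35 androgen-induced genes, 32 also responded less. Among the members with more than 3 vehicle counts in both arms, those called differed by -3.80 for AQP4-AS1, -3.43 for RP11-268J15.6, -2.73 for CENPN-AS1, -2.49 for SNAI2, -2.38 for TG, -2.01 for PTCRA, -1.73 for HHIPL2 and -1.45 for TUBA3E on the log2 scale, and those not called by 0.37 for ORM2, -0.29 for NPPC, 0.11 for TGM2 and -0.22 for TRGC2. AQP4-AS1, RP11-268J15.6 and CENPN-AS1 were the members with the highest levels in P3_vehicle, at 0.677, 0.796 and 1.59 CPM. The calls of HHIPL2, PTCRA and TUBA3E were lost when single libraries were left out (adjusted p up to 0.0779, 0.201 and 0.118), and that of TUBA3E also with no filter on low counts (0.0759) and with all 24 libraries in one fit (0.0567).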

How the results depend on the processing

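The set of members depended on the limits: 11 genes at a vehicle limit of 0.2 CPM, 39 at an R1881 limit of 1 CPM, and 8 when every library had to pass. TMM-scaled CPM gave 21, including all 18, and leaving out 1 control library gave 16 to 20. Between siWDR77_R1881 and siCtrl_R1881, 3 genes were called without siCtrl_R1881 S8, against 5 with all libraries. The other counts of called members or of genes chosen in the other study stayed within 1.5 times under all alternatives. Single-gene results between arms were followed only for genes called in the main fit, so a gained call there could not appear. Counting each gene under each alternative, 1181 results kept direction and call, 73 kept direction only, and 0 reversed, and the cause was not tested. The sample numbers run in 3 series (S1 to S10, S15 to S24, S29 to S38). Correlations between libraries of the same series were above 0.1 in all 3 pairs of P3_R1881 with P3_vehicle, but not in all 3 of any other pair of groups. In some other pairs of groups all 3 were positive but smaller, as in siWDR77_R1881 with siCtrl_R1881 (0.125, 0.069 and 0.0988). The fit with a replicate block lost no call of a named gene. It called 17 and 18 members for the R1881 response in P3 and siWDR77 cells. It called 30, 9 and 22 of the 36 genes, and 6 (5 in the main fit), 0 and 0 of the 26. Over all genes, calls between P3_vehicle and EV_vehicle were 2809, and 1344 to 1825 without EV_vehicle S1, EV_vehicle S15 or P3_vehicle S5. Between siWDR77_R1881 and siCtrl_R1881 they were 1291, and 587 to 752 without siCtrl_R1881 S8, S22 or S36 or siWDR77_R1881 S24 or S38. Between siWDR77_vehicle and siCtrl_vehicle they were 273, against 422 with no filter, 436 with DESeq2, 491 with all 24 libraries, and 91 to 478 without siCtrl_vehicle S21 or S35 or siWDR77_vehicle S9 or S37. For the difference in response between siWDR77 and siCtrl they were 0, against 112 with no filter, 56 with DESeq2, 16 with the replicate block, 40 with all 24 libraries and 43 without siCtrl_vehicle S35. Depth limits all vehicle levels, which rest on few reads.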
